A study of Danio rerio with 9 samples.

Results

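Mitochondrial ribosomal protein genes were examined in whole larval zebrafish (Danio rerio) exposed to perfluorononanoic acid (PFNA), a long-chain perfluoroalkyl acid. Members were all genes whose symbol in the deposited tables begins with mrpl or mrps followed by a digit, and 72 genes met this rule, 45 mrpl genes named for the large subunit and 27 mrps genes named for the small subunit. They were 72 of the 19251 genes in the table for 0.1 µg/L PFNA and the same number of the 19731 genes in the table for 10 µg/L PFNA. The study placed fertilized embryos in 0.1% DMSO as solvent control or in PFNA at 0.1 or 10 µg/L. After 7 days of exposure it sequenced poly(A) RNA from 3 pools of larvae per group. Each pool held the 14 to 15 larvae of a beaker and served as a biological replicate. The labels give the tissue as larvae and name no strain or genotype.

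The mitochondrial ribosome translates the few mRNAs encoded by mitochondrial DNA, all of which specify core subunits of the oxidative phosphorylation (OXPHOS) complexes or ATP synthase. Its rRNAs are mitochondrial transcripts, whereas every one of its proteins is encoded in the nucleus, made in the cytosol and imported. Many of these proteins descend from bacterial ribosomal proteins, and others were added during the evolution of mitochondria. In humans, loss of individual members causes combined deficiencies of OXPHOS that affect heart, liver, brain and hearing. Roles given below are known from mammals or bacteria unless another species is named, and were not measured here.

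Recovered read totals ranged from 14491289 to 23963715 per library. A normalized count is the number of reads on a gene divided by a scaling factor of its library, and the values per pool below were scaled together over the 9 libraries. All 72 members passed the minimum mean of 10 normalized counts in every comparison. Their means over the 9 libraries lay between 73.6 and 2012 with a median of 323, and the fewest reads of any member in a library was 44. Levels are compared between groups for a gene and not between genes, since transcript lengths were not used. DMSO replicates 1 and 2 carried different first sequencing indices from each other and from the other 7 libraries, so that DMSO replicate 3 was the only control sharing this index with the exposed pools. RNA came from whole larvae, so fewer cells of a type and less RNA per cell cannot be told apart.

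Among the pools, the family was lowest after 10 µg/L PFNA and in DMSO replicate 3. The level of each member was taken on the log2 scale relative to its own mean over the 9 libraries. The median of these relative levels over the 72 members was 0.26 in DMSO replicate 1, 0.01 in DMSO replicate 2 and -0.13 in DMSO replicate 3. The corresponding medians were 0.19, 0.04 and 0.13 in the pools at 0.1 µg/L, and -0.07, -0.17 and -0.20 in the pools at 10 µg/L. Both exposed groups were therefore separated from each other, while the control pools spanned nearly the whole range. Of the 72 members, 41 had their lowest value of all 9 libraries in a pool at 10 µg/L and 17 had it in DMSO replicate 3. The highest value lay in DMSO replicate 1 for 33 members, in a pool at 0.1 µg/L for 31 members and in a pool at 10 µg/L for 3 members.

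**Figure D1:**
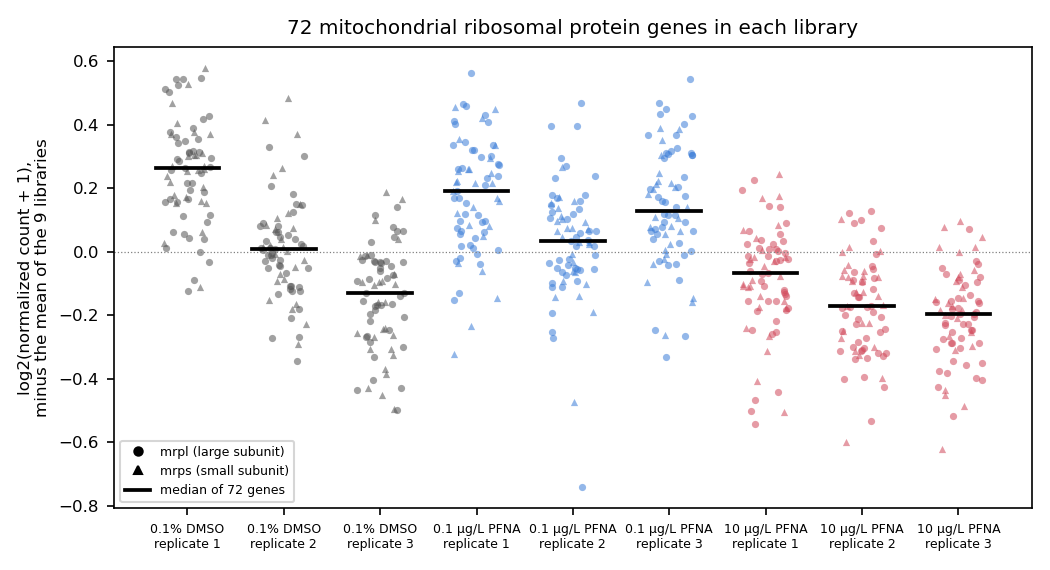
The y axis gives the log2 level of each of the 72 members relative to its own mean over the 9 libraries, and each column on the x axis is a library coloured by group. Circles are mrpl genes, triangles are mrps genes and black bars are medians, which lie at -0.13 to 0.26 for DMSO. The medians lie at 0.04 to 0.19 for the lower concentration and at -0.20 to -0.07 for the higher one.

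The control pools also differed most among themselves in single members. The median SD of a member across 3 pools was 0.25 on the log2 scale in DMSO, 0.16 at 0.1 µg/L and 0.14 at 10 µg/L. The same medians over all genes were 0.31, 0.26 and 0.20, with the groups in the same order. The members together took 0.1501%, 0.1562% and 0.1517% of all recovered reads in the DMSO pools. Their share was 0.1580%, 0.1567% and 0.1628% at 0.1 µg/L, and 0.1446%, 0.1542% and 0.1523% at 10 µg/L. The shares at 10 µg/L overlapped those of DMSO and lay below all those at 0.1 µg/L.

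The comparison of 10 µg/L PFNA with DMSO asks how the higher concentration altered larval transcripts. The fitted log2 fold change was negative for 68 of the 72 members (94.4%) against 49.2% of all 19610 genes tested, but 41 of 72 when libraries were scaled by total reads. The median over members was -0.19 (range -0.59 to 0.11) against 0.01 over all genes. Scaling by total reads shifted the median of all genes to 0.18 and that of the members to -0.02. Relative to the median gene the members stood at -0.20 under either scaling. New library factors shift all genes alike, so this agreement was fixed in advance and is no check of the decrease. A member is here called changed where limma gave an unadjusted p below 0.05. Under this rule 4 members (5.56%) were lower and 0 were higher, where 5.21% of all genes tested were lower and 7.91% were higher. The share of members called lower was thus close to the background. After Benjamini-Hochberg adjustment over all genes, limma called 0 members and 0% of all genes, and the smallest adjusted p of a member was 0.336. DESeq2 on the recovered reads likewise called 0 members at an adjusted p below 0.05, where 0.35% of genes were called lower, and 3 members (4.17%) at an unadjusted p below 0.05 in either direction, against 12.3% of all genes.

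Complete separation of the pools was more frequent in the family than single calls. In 15 members (20.8%) all 3 pools at 10 µg/L lay below all 3 DMSO pools, against 8.24% of all genes. In 0 members did all pools at 10 µg/L lie above DMSO, against 9.76% of all genes. With total-read scaling these became 9 members (12.5%) below and 4 (5.56%) above, against 3.63% and 13.8% of all genes. The 15 were mrpl3, mrpl14, mrpl18, mrpl33, mrpl34, mrpl41, mrpl42, mrpl44, mrpl47, mrpl52 and mrpl54 of the large subunit symbols and mrps21, mrps24, mrps25 and mrps35 of the small subunit symbols.

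The 4 members called lower were mrps24, mrps21, mrpl42 and mrpl34. The gene mrps24 (ENSDARG00000100116) encodes a small subunit protein related to bacterial S3, which lies near the site where mRNA enters. Normalized counts of mrps24 were 352, 247 and 252 in the DMSO pools, 297, 169 and 246 in the pools at 0.1 µg/L and 189, 195 and 221 in the pools at 10 µg/L. Every pool at 10 µg/L lay below every DMSO pool, while the pools at 0.1 µg/L overlapped both other groups. The log2 fold change at 10 µg/L against DMSO was -0.49 ± 0.19 (here and below ± 1 standard error, 3 pools per group) by limma (unadjusted p = 0.0301, adjusted p = 0.336).

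The gene mrps21 (ENSDARG00000070985) encodes the counterpart of bacterial S21 and had the most negative fold change of the family in this comparison. In mrps21, the 3 pools gave 121, 134 and 94.1 normalized counts in DMSO, 129, 111 and 106 at 0.1 µg/L and 93.2, 66.1 and 73.2 at 10 µg/L. The pools at 10 µg/L were below all 6 others. Its log2 fold change against DMSO was -0.59 ± 0.24 by limma (unadjusted p = 0.0336, adjusted p = 0.346).

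The gene mrpl42 (ENSDARG00000079391) encodes a large subunit protein with no bacterial counterpart. The DMSO pools held 474, 308 and 321 normalized counts of mrpl42, against 383, 370.4 and 432 at 0.1 µg/L and 296, 249 and 249 at 10 µg/L. Again no pool at 10 µg/L reached any other pool, and DMSO replicate 1 was the highest of the 9. Its log2 fold change against DMSO was -0.46 ± 0.20 by limma (unadjusted p = 0.0435, adjusted p = 0.369). The gene mrpl34 (ENSDARG00000092954) encodes the counterpart of bacterial L34, a small basic protein of the large subunit. Pools at 10 µg/L had 334, 301 and 341 normalized counts of mrpl34, compared with 381, 408 and 447 at 0.1 µg/L and 441, 378 and 411 in DMSO. The pools at 10 µg/L were below all others, with a log2 fold change against DMSO of -0.34 ± 0.15 by limma (unadjusted p = 0.0472, adjusted p = 0.377).

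Next in order of p were mrpl14, mrpl18, mrps14, mrpl33, mrps35 and mrpl47, for which limma gave unadjusted p between 0.0518 and 0.0665. Their log2 fold changes ranged from -0.44 in mrpl47 to -0.29 in mrps35. Of these, mrpl14, mrpl18, mrps14 and mrpl33 encode counterparts of bacterial ribosomal proteins of the same numbers, mrpl47 encodes a relative of bacterial L29 near the peptide exit, and mrps35 encodes a small subunit protein without a bacterial counterpart. All but mrps14 had every pool at 10 µg/L below every DMSO pool.

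**Figure D2:**
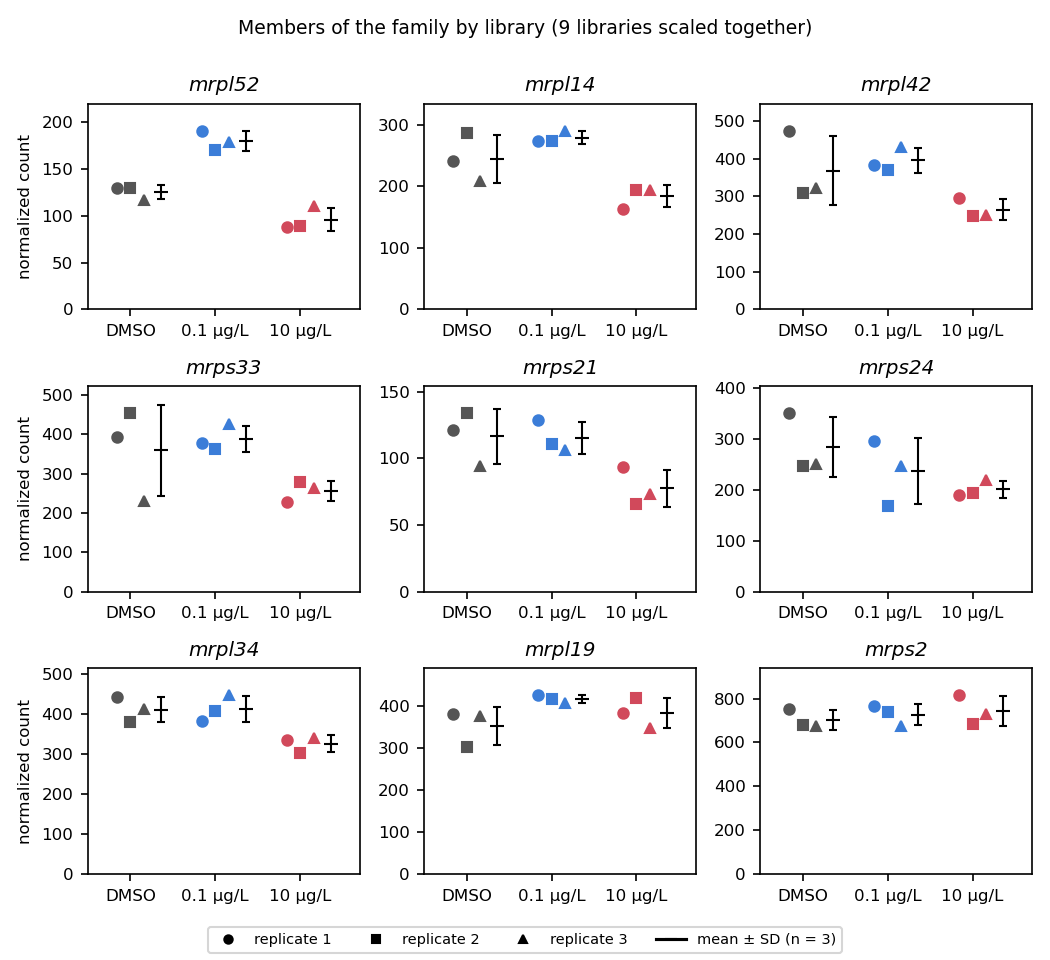
Each panel shows the normalized count of a member (y axis from 0) in the 3 pools of each group (x axis), with symbols for replicate number and the mean ± SD of 3 pools in black. In mrpl52, mrpl14, mrpl42, mrps21 and mrpl34 the pools at 10 µg/L lie below all others, whereas mrps33 and mrps24 overlap another group, mrpl19 has its pools at 0.1 µg/L above those of DMSO, and the groups overlap in mrps2.

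The calls against DMSO depended on the scaling and on single pools. With libraries scaled by total reads, 0 members were called, against 12.6% of all genes in either direction and 322 of 19610 genes called lower. Without DMSO replicate 3, whose family median lay nearest to those at 10 µg/L, 19 members (26.4%) were called, all lower. Of all genes, 26.9% were called in either direction, and the share called lower alone is not given here. Of the 72 members, 1 had an adjusted p below 0.05 (mrps33, limma adjusted p = 0.0182), against 2190 of 19495 genes. Without DMSO replicate 1, 1 member (mrps14, 1.39%) was called, against 9.18% of all genes. Without replicate 3 at 10 µg/L 1 member (mrps24, 1.39%) was called, against 8.9% of all genes. Without replicate 2 at 10 µg/L, 0 members were called, against 6.64% of all genes. The median fold change of the family remained negative throughout, from -0.31 without DMSO replicate 3 to -0.09 without DMSO replicate 1. With the first index as a covariate, where DMSO replicate 3 is the control that carries the contrast, the median was -0.01 and 1 member was called, mrps34, with a log2 fold change of 0.39. The part of the index in the difference cannot be told apart from that of the pool.

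The comparison between both concentrations asks whether exposed larvae differed with dose. All 6 libraries in it carried the same first index. The log2 fold change at 10 µg/L against 0.1 µg/L was negative for 66 of 72 members, and for 54 when libraries were scaled by total reads. The median over members was -0.27 (range -0.91 to 0.14) against 0.00 over the 18965 genes tested. Scaling by total reads moved these to -0.10 and 0.17. The members stayed at -0.27 relative to the median gene, as they had to, since new library factors shift all genes alike. Of the members, 26 (36.1%) were called lower and 0 higher by limma, against 11.5% and 14.2% of all genes. The pools at 10 µg/L lay entirely below those at 0.1 µg/L in 30 members (41.7%) against 13.9% of all genes, and entirely above in 0 members against 14.9%. With total-read scaling 15 members (20.8%) lay entirely below and 3 (4.17%) entirely above, against 5.29% and 23.7% of all genes. No gene passed adjustment by limma (0% of all genes), where an unadjusted p below 0.05 in either direction was given to 23 members (31.9%) and 23.4% of all genes by DESeq2, and to 26 members (36.1%) and 24.8% of all genes by edgeR. DESeq2 called 7 members lower at an adjusted p below 0.05 (9.72%) against 4.11% of genes. The 26 limma calls with all pools were all lower, where 11.5% of all genes were called lower. The share of members called by limma changed when a pool was left out. It is set here beside the share of all genes, with calls in either direction counted in both. It was 15.3% (11 members) against 15.2% of all genes without replicate 3 at 0.1 µg/L and 22.2% (16) against 16.1% without replicate 1 at that concentration. It was 34.7% (25) against 20.3% without replicate 1 at 10 µg/L. It was 22.2% (16) against 18.1% without replicate 2 at 10 µg/L and 19.4% (14) against 19% without replicate 3 at 10 µg/L. With all pools it was 36.1% against 25.7%. Without replicate 2 at 0.1 µg/L it was 52.8% (38) against 39.1%. In that setting 18 of 72 members passed adjustment, against 5125 of 18971 genes. Scaling by total reads left 4 calls (5.56%), namely mrpl52, mrps33, mrpl42 and mrpl14, all lower. Under that scaling 776 of 18965 genes were called lower, and 26.6% of all genes in either direction.

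The member that differed most was mrpl52 (ENSDARG00000090568), which encodes a large subunit protein with no bacterial counterpart. Counts of mrpl52, normalized, were 130.3, 129.8 and 117 with DMSO, 191, 170.3 and 179 with 0.1 µg/L and 88.4, 89 and 110.3 with 10 µg/L PFNA. The 3 groups did not overlap, with the pools at 0.1 µg/L highest, DMSO intermediate and those at 10 µg/L lowest. The log2 fold change between concentrations was -0.91 ± 0.18 by limma (unadjusted p = 0.000506, adjusted p = 0.0767), and DESeq2 gave an adjusted p of 0.00384. Against DMSO, it was -0.40 ± 0.21 at 10 µg/L (limma unadjusted p = 0.0769) and 0.52 ± 0.19 at 0.1 µg/L.

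The gene mrps33 (ENSDARG00000020015) encodes a small subunit protein that also lacks a bacterial counterpart. Normalized counts of mrps33 were 393, 455 and 230.4 in the DMSO pools, 377, 364 and 426 in the pools at 0.1 µg/L and 229, 278 and 264 in the pools at 10 µg/L. The exposed groups were separate, but DMSO replicate 3 lay among the pools at 10 µg/L and the other DMSO pools among or above those at 0.1 µg/L. Its log2 fold change between concentrations was -0.60 ± 0.14 by limma (unadjusted p = 0.00164), with an adjusted p of 0.0767 by limma and 0.0166 by DESeq2. In mrpl42, whose counts are given above, the change between concentrations was -0.58 ± 0.14 on the log2 scale (adjusted p = 0.0767 by limma and 0.0195 by DESeq2).

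The gene mrpl14 (ENSDARG00000068886) encodes the counterpart of bacterial L14, a protein at the face where both subunits meet. In mrpl14, the 3 pools gave 241, 286 and 208 normalized counts in DMSO, 273, 273 and 291 at 0.1 µg/L and 164, 195 and 194 at 10 µg/L. The pools at 10 µg/L were below all 6 others. The log2 fold change between concentrations was -0.60 ± 0.15 by limma (unadjusted p = 0.00213), with an adjusted p of 0.0767 by limma and 0.0235 by DESeq2. The gene mrps10 (ENSDARG00000045913) encodes the counterpart of bacterial S10 in the head of the small subunit. The DMSO pools held 546, 360.3 and 293 normalized counts of mrps10, against 517, 391 and 438 at 0.1 µg/L and 319.5, 318 and 305 at 10 µg/L. The exposed groups did not overlap, whereas DMSO spanned from below the pools at 10 µg/L to above those at 0.1 µg/L. Its log2 fold change was -0.50 ± 0.14 by limma (adjusted p = 0.0814), and DESeq2 gave an adjusted p of 0.0405. The other members that passed adjustment by DESeq2 were mrpl30, the counterpart of bacterial L30, and mrpl47. Pools at 10 µg/L had 552, 515 and 513 normalized counts of mrpl30, compared with 773, 642 and 708 at 0.1 µg/L and 914, 605 and 528 in DMSO. Counts of mrpl47, normalized, were 308, 208 and 192 with DMSO, 217, 259.8 and 285 with 0.1 µg/L and 181, 172 and 163 with 10 µg/L PFNA. In both genes the pools at 10 µg/L were below all those at 0.1 µg/L. The log2 fold changes by limma were -0.42 ± 0.12 in mrpl30 and -0.55 ± 0.16 in mrpl47, with adjusted p by DESeq2 of 0.0494 and 0.0497.

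**Figure D3:**
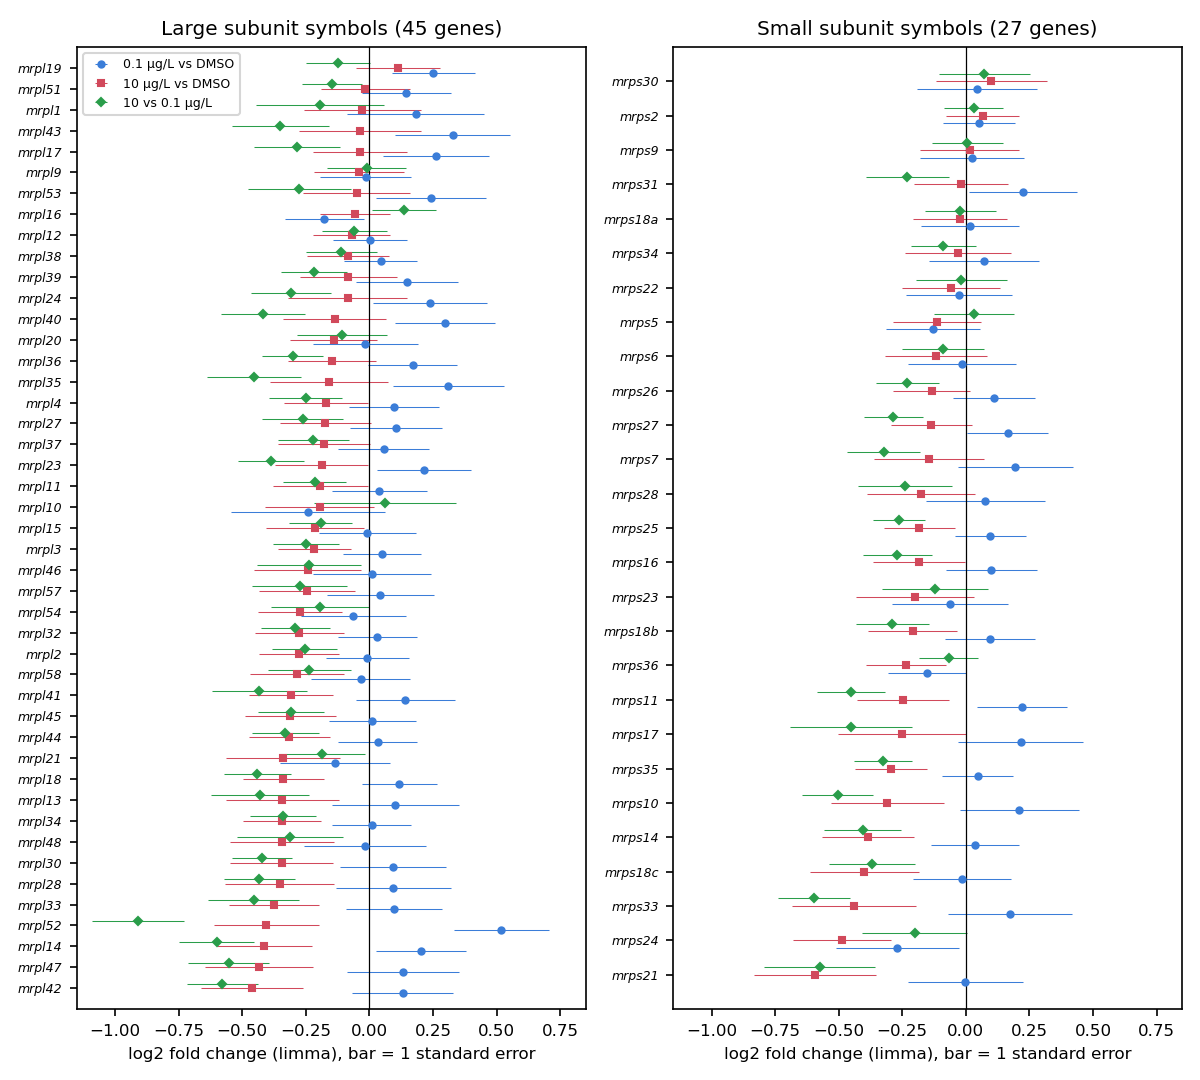
Each row is a member, the x axis is the limma log2 fold change and bars are 1 standard error, with blue circles for 0.1 µg/L against DMSO, red squares for 10 µg/L against DMSO and green diamonds for 10 against 0.1 µg/L. Most red and green symbols lie left of 0, with medians of -0.19 and -0.27, and most blue symbols lie right of it with a median of 0.07, while under total-read scaling the red median is -0.02.

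The comparison of 0.1 µg/L PFNA with DMSO addresses the lower concentration and shares its control pools with that of 10 µg/L. Fold changes were positive for 54 of 72 members and negative for 18, and the median was 0.07 against 0.00 over the 19065 genes tested. By limma 1 member, mrpl52, was called higher and 0 were called lower, where 0.755% of genes were higher and 0.813% lower. The change in mrpl52 was 0.52 ± 0.19 on the log2 scale (unadjusted p = 0.0197, adjusted p = 0.99994 by limma), and all 3 pools at 0.1 µg/L exceeded all DMSO pools. This call was lost without replicate 1 or without replicate 3 at 0.1 µg/L, and 4 members (5.56%) were called higher without DMSO replicate 1, against 4.47% of all genes called in either direction. After adjustment, limma called 0% of all genes, as did DESeq2 for lower genes (0%) at the same threshold. edgeR and DESeq2 each called 1 member (1.39%) at an unadjusted p below 0.05, against 1.63% and 1.4% of all genes. The pools at 0.1 µg/L lay above all DMSO pools in 4 members (5.56%, namely mrpl19, mrpl40, mrpl52 and mrpl53) against 3.65% of genes, and below them in 0 members against 2.98%. The median of the family was -0.0027 without DMSO replicate 3, and 0.26 with the first index as a covariate, where 8 members (11.1%) were called, all higher, against 11.5% of all genes called in either direction.

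After mrpl52, the smallest p at 0.1 µg/L were those of mrpl19, mrpl40, mrpl43 and mrpl35, for which limma gave unadjusted p between 0.154 and 0.189. The gene mrpl19 encodes the counterpart of bacterial L19, a protein at the subunit interface. Normalized counts of mrpl19 were 382, 301 and 375 in the DMSO pools, 426, 417 and 408 in the pools at 0.1 µg/L and 384, 418 and 348 in the pools at 10 µg/L. The pools at 0.1 µg/L were above all DMSO pools, and those at 10 µg/L overlapped both groups. Its log2 fold changes against DMSO were 0.25 ± 0.16 at 0.1 µg/L and 0.11 ± 0.17 at 10 µg/L. The gene mrpl40 encodes a large subunit protein without a bacterial counterpart. In mrpl40, the 3 pools gave 209, 199 and 153 normalized counts in DMSO, 209.6, 254 and 221 at 0.1 µg/L and 181, 146 and 186 at 10 µg/L. Its pools at 0.1 µg/L also lay above the other groups, with log2 fold changes of 0.30 ± 0.20 against DMSO at 0.1 µg/L and -0.42 ± 0.17 between concentrations, the latter with a limma unadjusted p of 0.0307. In mrpl43 and mrpl35 the pools at 0.1 µg/L overlapped DMSO replicate 1, with log2 fold changes against DMSO of 0.33 ± 0.23 and 0.31 ± 0.22.

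The medians of both subunits were close. In the large subunit symbols, 44 of 45 genes had a negative fold change at 10 µg/L against DMSO with a median of -0.21 (27 genes and -0.04 with total-read scaling), and 2 were called lower. In the small subunit symbols, 24 of 27 were negative with a median of -0.18 (14 genes and -0.0040 with total-read scaling), and 2 were called lower. Of all genes tested, 5.21% were called lower in this comparison. Between concentrations, 17 of 45 mrpl genes (median -0.28) and 9 of 27 mrps genes (median -0.24) were called lower, where 11.5% of all genes were. With total-read scaling 3 mrpl genes (median -0.11) and 1 mrps gene (median -0.07) were called lower, where 776 of 18965 genes were. Members were also grouped by ancestry, with 41 that have a bacterial counterpart, 26 that have none and 5 not classed (mrpl58, mrps18a, mrps18b, mrps28 and mrps36). Between concentrations, 16 of the 41 (median -0.29) and 10 of the 26 (median -0.27) were called lower. Against DMSO, the medians at 10 µg/L were -0.20 with 3 called and -0.18 with 1 called, respectively, beside 5.21% of all genes. No difference between these groups of genes was tested.

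The stalk of the large subunit, which recruits elongation factors, is built in bacteria and mitochondria from L10, L11 and L7/L12 proteins. Of its members, mrpl12 encodes the stalk protein itself, which in mammals has also been found to bind the mitochondrial RNA polymerase. The DMSO pools held 456, 471 and 493 normalized counts of mrpl12, against 454, 503 and 464 at 0.1 µg/L and 516, 441 and 412 at 10 µg/L. The groups overlapped fully, with a log2 fold change at 10 µg/L against DMSO of -0.07 ± 0.15. The gene mrpl10 encodes the protein that anchors the stalk. Pools at 10 µg/L had 130.3, 111 and 104 normalized counts of mrpl10, compared with 124, 70.2 and 153 at 0.1 µg/L and 159, 114 and 122 in DMSO. The pools at 0.1 µg/L covered nearly all values of both other groups, and the log2 fold change at 10 µg/L against DMSO was -0.20 ± 0.22. The gene mrpl11 encodes the protein at the stalk base. Counts of mrpl11, normalized, were 862, 689.9 and 546 with DMSO, 768, 641 and 709 with 0.1 µg/L and 675, 589 and 559.7 with 10 µg/L PFNA. Its log2 fold change against DMSO was -0.19 ± 0.19, with DMSO replicate 3 below all pools at 10 µg/L. None of these 3 genes was called in any comparison.

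Several members are known from human disease. The genes mrpl3 and mrpl44 are linked in humans to cardiomyopathy with OXPHOS deficiency. Normalized counts of mrpl3 were 469.8, 492 and 442 in the DMSO pools, 545, 447 and 459 in the pools at 0.1 µg/L and 432, 392 and 393 in the pools at 10 µg/L. In mrpl44, the 3 pools gave 538, 473 and 442 normalized counts in DMSO, 472, 532 and 474 at 0.1 µg/L and 444, 363 and 371 at 10 µg/L. All pools of mrpl3 at 10 µg/L lay below all DMSO pools. In mrpl44 this held in the scaling of the 10 µg/L table, which the counts of separated members use, whereas on the joint scale given here replicate 1 at 10 µg/L slightly exceeded DMSO replicate 3. The log2 fold changes against DMSO were -0.22 ± 0.14 in mrpl3 and -0.31 ± 0.16 in mrpl44, neither of which was called. Between concentrations mrpl44 was called lower at -0.33 ± 0.13 (limma unadjusted p = 0.0303, adjusted p = 0.151).

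The small subunit genes mrps2, mrps7, mrps16, mrps22 and mrps34 are also human OXPHOS deficiency genes. The DMSO pools held 350.1, 274 and 198 normalized counts of mrps7, against 332, 265 and 321 at 0.1 µg/L and 251, 240.5 and 238 at 10 µg/L. Its pools at 10 µg/L were below all those at 0.1 µg/L, with a log2 fold change between concentrations of -0.32 ± 0.14 (limma unadjusted p = 0.0485, adjusted p = 0.192), and lay within the DMSO range. In mrps16 the fold change between concentrations was -0.27 ± 0.13 and the exposed groups did not overlap, though the gene was not called. Pools at 10 µg/L had 439, 461 and 489.8 normalized counts of mrps34, compared with 554, 445 and 483 at 0.1 µg/L and 629, 467 and 352 in DMSO. In this gene DMSO alone covered the range of both exposed groups, and the log2 fold change at 10 µg/L against DMSO was -0.03 ± 0.21. In mrps22 it was -0.06 ± 0.19, and in mrps5, the counterpart of bacterial S5, it was -0.11 ± 0.17.

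The genes mrps18a, mrps18b and mrps18c encode paralogs related to bacterial S18, of which the product of MRPS18A sits in the large subunit in mammals and the others in the small subunit. Their log2 fold changes at 10 µg/L against DMSO were -0.02 ± 0.18, -0.21 ± 0.17 and -0.40 ± 0.22, and between concentrations -0.02 ± 0.14, -0.29 ± 0.14 and -0.37 ± 0.17. Counts of mrps18c, normalized, were 329, 244 and 221 with DMSO, 251, 248 and 274 with 0.1 µg/L and 244, 191 and 169 with 10 µg/L PFNA. In mrps18b and mrps18c all pools at 10 µg/L were below all those at 0.1 µg/L, whereas in mrps18a the exposed groups overlapped. None of the 3 paralogs was called.

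Other members with roles beyond the standard subunits were likewise not called. The gene mrpl58 encodes a peptidyl-tRNA hydrolase that became part of the large subunit and rescues stalled ribosomes, and its log2 fold change at 10 µg/L against DMSO was -0.28 ± 0.18. The product of mrps36 is described in mammals as a component of the α-ketoglutarate dehydrogenase complex rather than of the ribosome. Normalized counts of mrps36 were 987, 753 and 897 in the DMSO pools, 767, 796 and 788 in the pools at 0.1 µg/L and 784, 801 and 665 in the pools at 10 µg/L. Its fold change was -0.24 ± 0.16 against DMSO and -0.07 ± 0.12 between concentrations.

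The 4 members with positive fold changes at 10 µg/L against DMSO were mrpl19, mrps30, mrps2 and mrps9. The product of mrps30 sits in the large subunit in mammals despite its name. In mrps30, the 3 pools gave 274, 172 and 179 normalized counts in DMSO, 206, 254 and 176 at 0.1 µg/L and 250.1, 200.1 and 213 at 10 µg/L. The DMSO pools held 755, 678 and 677 normalized counts of mrps2, against 767, 738 and 676 at 0.1 µg/L and 816, 684 and 729.7 at 10 µg/L. In both genes the 3 groups overlapped. The log2 fold changes against DMSO were 0.10 ± 0.22 in mrps30, 0.07 ± 0.14 in mrps2 and 0.01 ± 0.19 in mrps9, with unadjusted p by limma of 0.655, 0.655 and 0.941. Without DMSO replicate 2 the value of mrps30 became -0.02, and without replicate 1 at 10 µg/L that of mrps2 became -0.0022.

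Genes that build, feed or depend on the mitochondrial ribosome were counted from lists. Total-read scaling moved the median of all genes at 10 µg/L against DMSO from 0.01 to 0.18, and the medians of the lists of mitochondrial genes with it, to between -0.03 and 0.22. Relative to the median gene, the median of no list moved by more than 0.0020 in this comparison and 0.0030 between concentrations. This too was fixed in advance by the change of library factors and is no check of the values. The values below are from the deposited scaling. Of 5 ribosome proteins under other symbols (dap3, ptcd3, chchd1, aurkaip1 and gadd45gip1), all 5 had negative fold changes at 10 µg/L against DMSO with a median of -0.16, and 0 were called. Between concentrations gadd45gip1, a large subunit protein, was called lower with a log2 fold change of -0.59 ± 0.16 (limma unadjusted p = 0.00352). Of 23 genes for assembly and rRNA modification, 20 were negative against DMSO with a median of -0.16. Of these 23, 2 were called lower and 1 higher, where 5.21% and 7.91% of all genes were. The 2 were rbfa, a small subunit maturation factor (-0.85 ± 0.27, unadjusted p = 0.0106), and ngrn, in human cells part of a module with an rRNA pseudouridine synthase (-0.37 ± 0.16, unadjusted p = 0.0414). The gene called higher was eral1, an rRNA chaperone of the small subunit (0.69 ± 0.26, unadjusted p = 0.0218). Between concentrations 6 of the 23 were called lower (rpusd4, ngrn, mterf3, ddx28, tfb1m and rbfa) and 1 higher (eral1), and the median was -0.26, where 11.5% of all genes were called lower and 14.2% higher. With total-read scaling 1 was called lower and 2 higher, where 776 and 4262 of 18965 genes were, and the median was -0.09.

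Of 17 genes listed as mitochondrial translation factors, which include lrpprc, slirp, oxa1l and mpv17l2 beside the factors proper, 12 were negative at 10 µg/L against DMSO with a median of -0.13. The initiation factor gene mtif3 was called lower at -0.55 ± 0.24 (limma unadjusted p = 0.0458), where 5.21% of all genes were called lower. At 0.1 µg/L against DMSO mtrf1 of this list was called lower at -0.62 ± 0.25 (limma unadjusted p = 0.0307), where 0.813% of all genes were. Of 17 genes listed as mitochondrial aminoacyl-tRNA synthetases, 7 were negative with a median of 0.04. These 17 include the amidotransferase genes qrsl1 and gatb, and gars and kars, which are not specific to mitochondria. Among the 17, cars2 was called lower at -0.35 ± 0.16 (limma unadjusted p = 0.0484). Between concentrations ENSDARG00000100552, which like another ID is named taco1, a translational activator, was called lower at -0.59 ± 0.24 (limma unadjusted p = 0.0317), and lars2, the leucyl-tRNA synthetase gene, was called higher at 1.14 ± 0.40 (limma unadjusted p = 0.0177). Of 11 genes for transcription and maintenance of mitochondrial DNA, 0 were called against DMSO and the median was -0.04. Between concentrations tfam, which packages mitochondrial DNA, was called lower at -0.43 ± 0.16, and mterf2 was called higher at 0.67 ± 0.28. Beside these single calls between concentrations, 11.5% of all genes were called lower and 14.2% higher.

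Most subunits of the OXPHOS complexes are clients of the mitochondrial ribosome or assemble with such clients. Of 88 nuclear OXPHOS genes, 75 were negative at 10 µg/L against DMSO with a median of -0.20, and 14 were called lower and 0 higher, where 5.21% of all genes were called lower. Among the 14 were atp5if1a and atp5if1b, which encode ATP synthase inhibitors, and cycsb, which encodes cytochrome c. These are not subunits of the complexes. With total-read scaling 2 of the 88 were called lower and 2 higher, with a median of -0.03, where 322 and 2144 of 19610 genes were called. Between concentrations 30 of 87 were called lower and the median was -0.22, where 11.5% of all genes were called lower. Total-read scaling gave 5 called lower, 3 called higher and a median of -0.05, where 776 of 18965 genes were called lower and 4262 higher. Of the 13 protein-coding genes of mitochondrial DNA, 11 were negative against DMSO with a median of -0.14 and 0 were called. Their pools were not separated by group, since the median relative log2 level was 0.61 in DMSO replicate 1 and -0.34 in DMSO replicate 3. Between concentrations 12 of these 13 genes were negative with a median of -0.26, and 1 was called lower. That gene was the complex I gene mt-nd6, at -0.69 ± 0.19 (limma unadjusted p = 0.00441). With total-read scaling 11 of the 13 were negative with a median of -0.09, and 1 was called lower and 1 higher.

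Cytosolic ribosomal proteins, which form the separate ribosome of the cytoplasm, had more negative medians. Of 81 such genes, 80 were negative at 10 µg/L against DMSO with a median of -0.53 and 38 were called lower, and between concentrations 73 were called lower with a median of -0.55. Of all genes, 5.21% and 11.5% were called lower in these comparisons. These genes kept negative medians with total-read scaling, of -0.35 against DMSO with 61 called lower and -0.38 between concentrations with 65 called lower. Under that scaling 322 of 19610 genes and 776 of 18965 genes were called lower, respectively. The median of the cytosolic genes at 0.1 µg/L against DMSO was 0.05 with 0 called. The difference between both kinds of ribosomal protein gene was not tested.

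**Figure D4:**
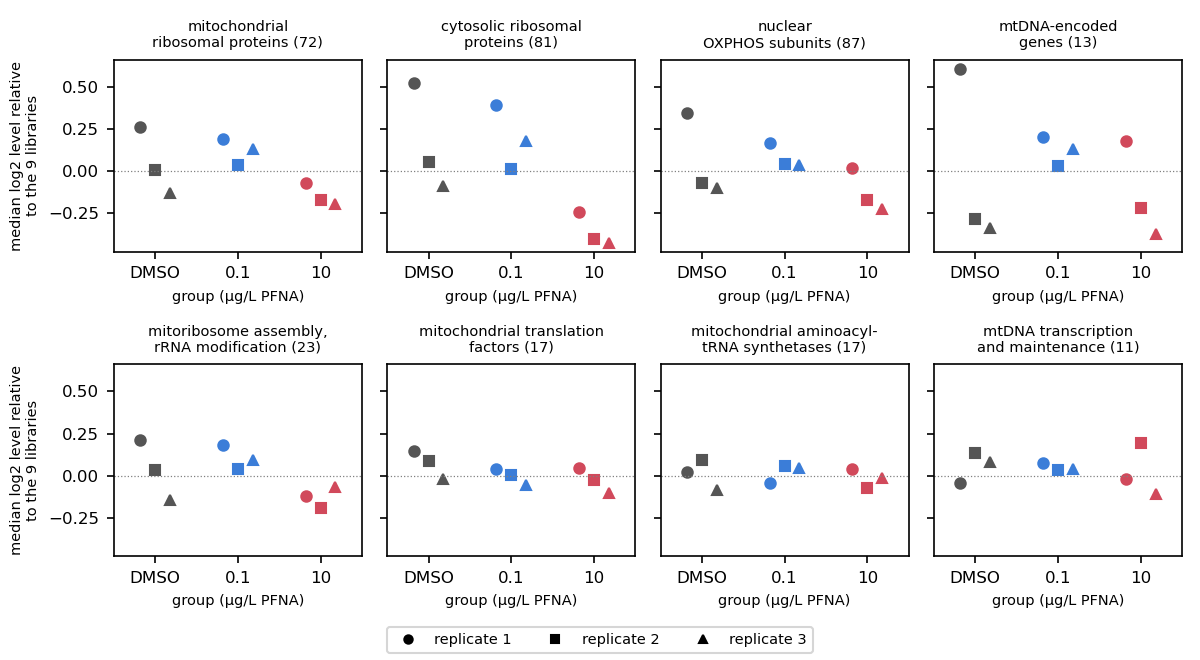
Each panel is a gene list with its number of genes, the x axis is the group, symbols are replicates 1 to 3, and the y axis is the median over the list of the log2 level relative to the mean of the 9 libraries. Mitochondrial ribosomal proteins lie between -0.20 and 0.26, cytosolic ribosomal proteins show the pools at 10 µg/L below all others, and mitochondrial DNA-encoded genes reach 0.61 in DMSO replicate 1. With total-read scaling the family median at 10 µg/L against DMSO is -0.02.

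Tissue markers were summed per pool, since whole larvae can differ in tissue content. Sums of the 14 neuron markers lay between 48242.5 and 84454.9 normalized counts in DMSO, between 62675.4 and 88301.6 at 0.1 µg/L, and between 60214.1 and 62028.7 at 10 µg/L. Of these 14 genes, 7 were called lower between concentrations and 0 against DMSO, where 11.5% and 5.21% of all genes were called lower. With total-read scaling 2 were called lower and 1 higher between concentrations, and their median went from -0.31 to -0.14. Of the 18965 genes tested, 776 were then called lower and 4262 higher. For the 12 liver markers the lowest and highest sums were 17553 and 60448.4 in DMSO, 23861.6 and 42970.8 at 0.1 µg/L, and 40626.7 and 63891.2 at 10 µg/L. Between concentrations 6 liver markers were called higher, where 14.2% of all genes were. With total-read scaling 8 liver markers were called higher, where 4262 of 18965 genes were. The 8 intestine markers found had 2 called higher and 1 lower between concentrations, and 6 higher and 1 lower with total-read scaling, beside the same shares of all genes. Each of the other 5 lists (skeletal muscle, exocrine pancreas, lens, photoreceptors and erythrocytes) had at most 3 calls against DMSO at 10 µg/L or between concentrations, and up to 5 with total-read scaling. At 10 µg/L against DMSO that scaling called 2144 of 19610 genes higher and 322 lower. Lens markers were higher at 0.1 µg/L than in DMSO in 11 of 11 genes (median 0.61, 4 called) and photoreceptor markers in 13 of 13 (median 0.37, 2 called). At 10 µg/L against DMSO, lens markers were higher in 10 of 11 genes (median 0.40, 3 called). Photoreceptor markers were higher there in 12 of 13 (median 0.20, 1 called). Of all genes, 0.755% were called higher at 0.1 µg/L and 7.91% at 10 µg/L. DMSO replicate 3 had the lowest value of the 9 libraries in 14 of 14 neuron, 11 of 13 photoreceptor and 7 of 11 lens markers. It had the highest value in 8 of 13 exocrine pancreas and 3 of 12 liver markers. Other pools also stood apart. Replicate 1 at 10 µg/L was highest in 8 of 12 liver and 6 of 8 intestine markers. DMSO replicate 2 was lowest in 10 of 12 liver and 11 of 13 exocrine pancreas markers. No marker was at 0 in a whole group, and the part of tissue content in the differences of the family was not tested.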

How the data were processed

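Poly(A) RNA sequencing of 9 libraries was analysed, 3 per group, grouped by the treatment in the labels. The authors trimmed reads with Trimmomatic 0.36, mapped them with STAR 2.5.2b to GRCz10 and counted them with featureCounts (Subread 1.5.2). The deposited signal of a gene is its count over the DESeq2 size factor of that library, estimated from the 6 libraries of a table. Log2 fold changes, p-values and adjusted p-values against DMSO, which the authors computed with DESeq2 and deposited beside them, were not used. All values of the 12 library columns were whole multiples of 1 read within 0.01, so reads were recovered, between 14491289 and 23963715 per library. DMSO reads were identical in both tables and were counted once.

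Comparisons with DMSO used the table of that concentration, and the concentrations were compared with each other on recovered reads with median-of-ratios factors over the 9 libraries. Tests were two-sided with limma 3.58.1 (trend) in R 4.3.3 on log2(normalized count + 1), so that changes of low genes are understated, for genes with a mean of at least 10. Benjamini-Hochberg adjustment ran over all tested genes. Alternatives were DESeq2 1.42.0 and edgeR 4.0.16 on the whole reads, other pseudocounts, minimum means and scalings, a first-index covariate, a replicate block and omission of each pool. The limma fit was tried on simulated counts whose planted changes were larger than any fold change of a member. That trial does not show how well changes of the size seen in the family are detected. Members named with values were the 10 with the smallest p at 10 µg/L against DMSO, the 5 with the smallest p in each other comparison, those past adjustment by DESeq2, the extreme fold changes, and members of known role. Other genes named are the members of short lists or were chosen after their values were seen. Members and lists were chosen with earlier results of these data known. The gene identifiers of all 72 members were in the Ensembl name table. Genome positions and sequences are not given, because the gene table used here is of another build than GRCz10. Libraries were directional, and the study's methods state strand-specific counting for such preparations.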

Additional observations from a re-analysis of the deposited data

How the results depend on the processing

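The number of members called and their median fold change were recomputed under other settings. At 10 µg/L against DMSO, 4 members were called in the reported test, 8 by edgeR on recovered reads, 8 with all 9 libraries in one model, 0 with scaling by library totals (a setting chosen after seeing the data) and 1, in the opposite direction, with the first index as covariate. The shares of members called were 5.56% in the reported test, 11.1% by edgeR, 11.1% in the joint model and 0% with library totals. Of all genes, 13.1%, 12.8%, 12% and 12.6% were called in these settings, in either direction. The median over members was -0.016 with library totals and -0.010 with the first index. At 0.1 µg/L against DMSO, the first index gave 8 calls, all higher, and a median of 0.26. Between concentrations, library totals gave 4 calls, all lower (5.56%), and a median of -0.10. Of all genes, 26.6% were then called in either direction, and 776 of 18965 were called lower. Of all genes called between concentrations, 55.3% were higher in the reported test and 84.6% with library totals, and at 10 µg/L against DMSO 60.3% and 86.9%. At 0.1 µg/L against DMSO these shares were 48.2% and 59.9%. The index covariate could not be fitted between concentrations, where all libraries share the index. Replicate numbers follow the order of the labels and differ for some pools from the numbers in the library codes. Correlations of deviations with the same replicate number ranged from -0.36 to 0.28. With so few pools per group, these values cannot decide whether the samples were paired. Pairing by library code was tested neither in these correlations nor in the replicate block. A replicate block gave 17 calls between concentrations (23.6%, against 24.5% of all genes). In that setting 1 of 72 members passed adjustment, against 740 of 18965 genes. Against DMSO it gave the same number of calls as reported, where 14.8% of all genes were called at 10 µg/L and 0.981% at 0.1 µg/L. 

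Leaving out each pool gave 0 to 4 calls and medians of -0.0027 to 0.16 at 0.1 µg/L against DMSO, 0 to 19 calls and medians of -0.31 to -0.09 at 10 µg/L against DMSO, and 11 to 38 calls and medians of -0.32 to -0.24 between concentrations. The shares of all genes called were 0.587% to 4.47%, 6.64% to 26.9% and 15.2% to 39.1%, in that order. Fold changes of single members named in the report were recomputed 713 times, of which 630 kept direction and side of the threshold, 32 lost and 29 gained a call, and 22 reversed. All reversals were at 10 µg/L against DMSO in members not called. With library totals, mrpl12 became 0.11, mrps5 0.066, mrps7 0.034, mrps18a 0.16, mrps22 0.12 and mrps34 0.15. With the first index, mrpl11 became 0.14, mrps5 0.062, mrps7 0.29, mrps16 0.11, mrps18a 0.24 and mrps34 0.39. Leaving out each pool gave ranges of -0.0022 to 0.12 in mrps2, -0.021 to 0.32 in mrps30, -0.21 to 0.0083 in mrps5, -0.36 to 0.055 in mrps7, -0.15 to 0.13 in mrps18a, -0.15 to 0.051 in mrps22 and -0.24 to 0.18 in mrps34. The cause of these changes was not tested.

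Precision is limited by the 3 pools per group. Members had at least 44 reads per library, and the shares of counting error and of spread among pools were not separated.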
